A study of Mus musculus with 26 samples.

Results

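YTHDC2 is an m6A-binding RNA helicase of germ cells, and this account follows its mRNA, the mRNAs of the proteins it works with and those of the other YTH-domain m6A readers in adult mouse testis. The members were taken by gene symbol and not by their values: Ythdc2, its partners Meioc, Rbm46 and Xrn1, the meiotic inducer Stra8, and the readers Ythdc1, Ythdf1, Ythdf2 and Ythdf3. All 9 were found among the 51124 genes of the table, and all 9 passed the filter on low values that 23782 genes passed (a normalized count of at least 10 in at least 2 libraries). Total RNA of whole adult testes, depleted of ribosomal RNA, was sequenced in 2 libraries of each of 3 genotypes. Each library was taken to be of 1 separate mouse, which the sample labels do not state. Wild type (WT) mice, libraries N1 and N2, carried no inserted sites. Mice of the 10xPerf line, N3 and N4, were homozygous for 10 target sites of piR-A, an abundant pachytene piRNA, placed in the 3′ untranslated region of the endogenous Ythdc2 gene and pairing with it perfectly. Mice of the 10xBulge line, N5 and N6, were homozygous for 10 sites at the same place that were mismatched to the piRNA at its nucleotides 10 and 11, where a PIWI protein would cut. Both alleles were made by CRISPR/Cas9 editing of B6D2F1/J hybrid embryos, no age beyond adult was given, and the inserted sites are not part of the reference transcripts that were quantified. The alleles are in every cell of the animal, while pachytene piRNAs are made in germ cells from the pachytene stage on, and whole testis also holds Sertoli, Leydig and immune cells.

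N6-methyladenosine, m6A, is the most common internal modification of mRNA, and proteins with a YTH domain bind it. Most YTH proteins are found in many tissues, while YTHDC2 is needed in the germ line for the change from mitotic divisions to meiosis. There it acts with MEIOC and RBM46, its obligate cofactors, binds the 5′-3′ exonuclease XRN1, and lowers mRNAs of the mitotic programme once STRA8 has switched the meiotic genes on. Without YTHDC2 or MEIOC, germ cells enter meiosis and then try to divide as if in mitosis.

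The libraries held about 41100000 to 61600000 reads, as estimated from the steps between low values, and 3 reads were worth a normalized count of 2.73 to 3.63. The lowest value of any member, 212 for Stra8 in N1, was far above that. Values are gene counts that the authors divided by a size factor of each library, called normalized counts below. N1 and N2 differed from each other along the GC content of transcripts (Spearman's rho of their log2 difference with GC 0.630 over 12426 genes), and so did N5 and N6 (0.523), whereas between N3 and N4 rho was -0.250. In the 10xBulge libraries all 16 spermatid markers were called lower than in WT, with a summed normalized count of 2206 to 4116 against 761613 to 1043800. Of 16 spermatocyte markers 1 was called higher and 2 lower, and their sums were 30261 to 44996 in 10xBulge and 35764 to 58269 in WT. Markers of somatic cells moved the other way, with 6 of 10 Sertoli, 6 of 8 Leydig and 6 of 7 macrophage markers called higher in 10xBulge. Of 12 spermatogonial markers 2 were called higher and 1 lower in 10xBulge, with sums of 18557 to 20730 against 9158 to 13179 in WT. Their log2 fold change was above 0 for 11 of the 12, with a median of 0.58. Against 10xPerf 7 of them were called higher and 0 lower. In 10xPerf no marker of these lists was called against WT. None of the markers was at 0 in any library. In whole testis, fewer cells of a type and less RNA per cell cannot be told apart, and the part of cell composition in the results on 10xBulge was not tested beyond the scaling to spermatocyte markers given with them.

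**Figure D1:**
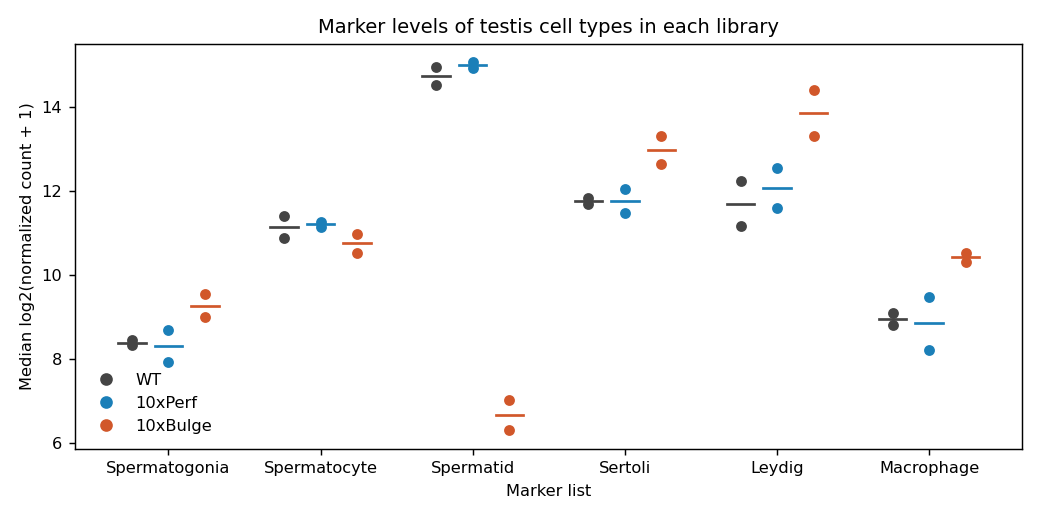
Median log2(normalized count + 1) of each list of cell type markers in each of the 6 libraries, with WT, 10xPerf and 10xBulge marked by colour and a line at each genotype's mean. The spermatid median is 14.53 to 14.95 in WT and 6.29 to 7.02 in 10xBulge, while the spermatocyte median is 10.89 to 11.40 in WT and 10.53 to 10.98 in 10xBulge.

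Levels of the 9 mRNAs were first compared per length, as normalized counts per kilobase of the longest protein-coding transcript. Meioc, whose product is the partner of YTHDC2 without an enzymatic activity of its own, had the highest level in all 6 libraries, 2886 ± 1765 (SD over the 6 libraries). Rbm46, which encodes an RNA-binding protein with RNA recognition motifs, followed at 1364 ± 670 and was ranked 2 to 4. Ythdc1, the nuclear reader, was at 852 ± 353 and Ythdf1, a cytoplasmic reader, at 821 ± 293, and their order changed between libraries, with Ythdc1 the higher in N2, N3 and N4. Ythdf2, the reader that recruits deadenylases to its targets, was at 633 ± 270. It was below Ythdf1 in all 6 libraries, although in N3 (497.5 against 497.9) and N4 (643 against 647) by very little. Stra8 at 394 ± 237 and Ythdf3 at 358 ± 119 also changed order between libraries. Ythdc2 was at 216 ± 96.6, ranked 7 or 8, and Xrn1 was last in all 6 libraries at 152 ± 59.9. Per length, the mRNA of YTHDC2 was thus below the mRNAs of both its cofactors in every library.

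**Figure D2:**
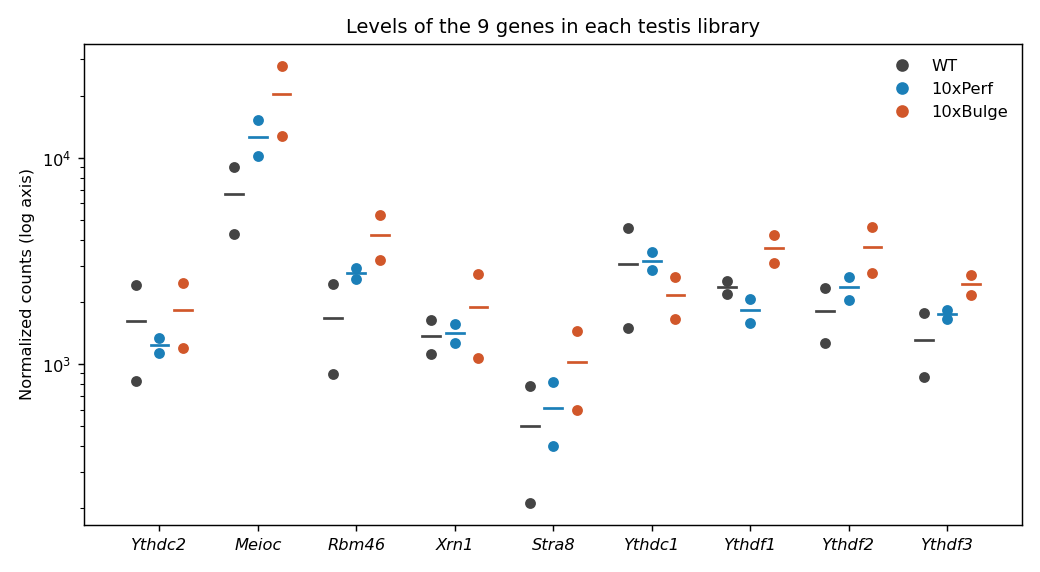
Normalized count (log axis) of each of the 9 mRNAs in the 6 libraries, 1 point per library, coloured by genotype, with a bar at each genotype's mean. Meioc (4283 to 27869) lies above the other members, and within WT most members are lower in N1 than in N2.

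Ythdc2, the edited gene, lies on chromosome 18 from 44827746 to 44889724 on the forward strand (coordinates here are of build GRCm38, while the authors quantified GRCm39 transcripts), and its longest transcript has 30 exons and 7215 nt. Its normalized counts were 827 and 2412 in WT, 1334 and 1136 in 10xPerf, and 1202 and 2458 in 10xBulge. The WT libraries enclosed both 10xPerf libraries and overlapped those of 10xBulge. Against WT the log2 fold change was -0.20 (SE 0.57, 95% interval -1.48 to 1.09) in 10xPerf, with an adjusted p of 0.939 in limma over all genes tested. In 10xBulge it was 0.28 (SE 0.57, interval -1.0 to 1.57), with an adjusted p of 0.754. Between the lines, 10xBulge against 10xPerf gave 0.48 (interval -0.80 to 1.77, adjusted p 0.567). These intervals hold both a doubling and a halving of the mRNA in 10xPerf, so neither was detectable with 2 mice a group. Leaving out 1 WT mouse turned the sign in both lines: without N1 the value was -0.97 in 10xPerf and -0.49 in 10xBulge, and without N2 it was 0.57 and 1.06.

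Of the partners, Meioc and Rbm46 rose in 10xBulge, and neither passed the test in 10xPerf. Meioc is on chromosome 11 from 102663716 to 102682237, forward strand, with 8 exons. Its normalized counts were 4283 and 8982 in WT, 15162 and 10137 in 10xPerf, and 12747 and 27869 in 10xBulge. All 4 knock-in libraries were above both WT libraries. Of all genes, both libraries of a line were above both of WT for 20.2% in 10xPerf and 28.9% in 10xBulge. In 10xBulge the mean was 20308 ± 10693 (SD, n = 2) against 6633 ± 3322 in WT, a fold of 3.04 (95% interval 1.30 to 7.10) with a log2 fold change of 1.60 (SE 0.54, adjusted p 0.0585, limma, threshold 0.1). In 10xPerf the log2 fold change was 1.00 (SE 0.54, interval -0.22 to 2.22, adjusted p 0.853). 10xBulge against 10xPerf gave 0.60 (interval -0.62 to 1.83, adjusted p 0.442), and the libraries of the lines overlapped.

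Rbm46 is on chromosome 3 from 82837228 to 82876483, reverse strand, with 5 exons. Normalized counts of Rbm46 were 898 and 2431 in WT, 2912 and 2597 in 10xPerf, and 3194 and 5276 in 10xBulge. As with Meioc, every knock-in library was above both WT libraries, though N4 was only narrowly above N2. The 10xBulge mean was 4235 ± 1472 against 1664 ± 1083 in WT, a fold of 2.78 (interval 1.22 to 6.31) with a log2 fold change of 1.47 (SE 0.52, adjusted p 0.0692). In 10xPerf the log2 fold change was 0.90 (SE 0.52, interval -0.29 to 2.08, adjusted p 0.853). The lines were compared with the same 2 WT libraries, so the values of 10xPerf and 10xBulge against WT are not independent.

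The calls for Meioc and Rbm46 in 10xBulge rested on single libraries. Without N1, the WT library in which both were lower, the log2 fold change was 1.07 (adjusted p 0.318) for Meioc and 0.76 (adjusted p 0.351) for Rbm46, and without N6 it was 1.04 (0.188) and 1.11 (0.197). Without N3 or N4, which enter the fit only through the estimate of the spread, the adjusted p was 0.132 to 0.156, and with WT and 10xBulge alone it was 0.133 for Meioc and 0.153 for Rbm46. With the GC trend of each library removed, Meioc and Rbm46 were called in 10xBulge both against WT, at 1.78 (adjusted p 0.00311) and 1.65 (adjusted p 0.0139), and against 10xPerf, at 1.06 (adjusted p 0.0324) and 1.04 (adjusted p 0.0775). Setting the spermatocyte marker median equal in all libraries gave 2.0 (adjusted p 0.0212) for Meioc and 1.87 (adjusted p 0.0204) for Rbm46 in 10xBulge. Under that scaling the median of all genes was 0.37 in this contrast.

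Xrn1 and Stra8 did not pass the test in any contrast. XRN1 is the cytoplasmic exonuclease that degrades decapped mRNA from its 5′ end, and its gene is on chromosome 9 from 95954760 to 96057803, forward strand, with 42 exons. Its normalized counts were 1112 and 1633 in WT, 1570 and 1266 in 10xPerf, and 1072 and 2725 in 10xBulge. The 10xBulge libraries lay on either side of WT, with log2 fold changes of 0.34 (adjusted p 0.658) in 10xBulge and 0.065 (adjusted p 0.977) in 10xPerf. STRA8 is the transcriptional inducer of meiotic entry, and its gene is on chromosome 6 from 34920163 to 34939344, forward strand. Normalized counts of Stra8 were 212 and 787 in WT, 401 and 821 in 10xPerf, and 1441 and 596 in 10xBulge. Stra8 differed between the mice of each genotype by 1.03 to 1.89 on the log2 scale, as much as between genotypes (10xBulge against WT 1.18, SE 0.69, adjusted p 0.243).

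Of the YTH readers, Ythdf1 was the only one with a call, in the contrast of the lines with each other. YTHDF1, YTHDF2 and YTHDF3 are closely related cytoplasmic proteins that act in the translation and decay of m6A-marked mRNA. Ythdf1 is on chromosome 2 from 180904377 to 180920949, reverse strand. In WT it had normalized counts of 2529 and 2186, in 10xPerf 1585 and 2061, and in 10xBulge 4222 and 3092. The 3 groups did not overlap, with 10xPerf lowest and 10xBulge highest. Ythdf1 was higher in 10xBulge than in 10xPerf by 1.00 on the log2 scale (SE 0.39, interval 0.12 to 1.88, adjusted p 0.0874), while each line against WT missed the threshold, 10xPerf at -0.38 (adjusted p 0.861) and 10xBulge at 0.62 (adjusted p 0.276). The call was lost without N3 (0.81, adjusted p 0.369), without N4 (1.19, 0.155) or without N5 (0.77, 0.265), and under other filters on low values (adjusted p 0.103), and with the GC trend removed the value was 1.11 (adjusted p 0.0207).

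Ythdf2, on chromosome 4 from 132184912 to 132212303, reverse strand, had normalized counts of 1267 and 2334 in WT, 2054 and 2654 in 10xPerf, and 4610 and 2758 in 10xBulge. Both 10xBulge libraries were above the 4 others, with a log2 fold change of 1.05 against WT (SE 0.46, unadjusted p 0.0478, adjusted p 0.126). Ythdf3, on chromosome 3 from 16183212 to 16217037, forward strand, had 864 and 1762 in WT, 1823 and 1657 in 10xPerf, and 2153 and 2714 in 10xBulge. Here too the 10xBulge libraries were the highest, at 0.97 against WT (SE 0.44, adjusted p 0.141). With each library divided by its total in place of the authors' size factors, the 10xBulge values of Ythdf1, Ythdf2 and Ythdf3 against WT were 1.00, 1.43 and 1.35 with adjusted p of 0.0382, 0.0307 and 0.0559, where the median of all genes was 0.36.

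Ythdc1, on chromosome 5 from 86804221 to 86836659, forward strand, encodes the nuclear reader that acts in splicing and export. Its normalized counts were 1498 and 4578 in WT, 3482 and 2854 in 10xPerf, and 1661 and 2644 in 10xBulge. The WT libraries enclosed all 4 others. The log2 fold change was 0.27 (adjusted p 0.913) in 10xPerf and -0.32 (adjusted p 0.709) in 10xBulge, and both signs turned when 1 of the WT libraries was left out. Among the YTH readers, Ythdc1 was the one with a 10xBulge mean below that of WT, 2153 ± 695 against 3038 ± 2178, a difference well within the spread.

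**Figure D3:**
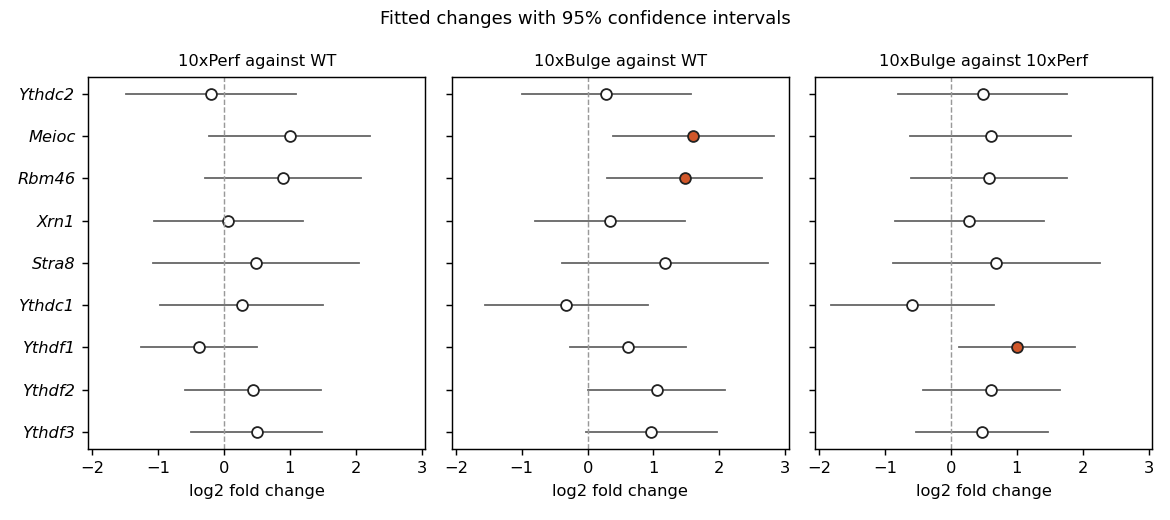
Log2 fold change of each member with its 95% interval (horizontal axis) in 10xPerf against WT, 10xBulge against WT and 10xBulge against 10xPerf, from the fit over all 6 libraries, with filled points for calls at an adjusted p under 0.1. The calls are Meioc (1.60) and Rbm46 (1.47) in 10xBulge against WT and Ythdf1 (1.00) in 10xBulge against 10xPerf.

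Over the 9 members, 0 were called in 10xPerf against WT, with adjusted p from 0.853 to 0.977 and 0 at an unadjusted p under 0.05. Of all genes tested, 0.959% were called in that contrast, 0.467% higher and 0.492% lower. In 10xBulge against WT 2 of 9 were called, both higher, where 34.4% of all genes were called, 11.4% higher and 23% lower. In 10xBulge against 10xPerf 1 of 9 was called, higher, where 37% of all genes were called, 12.9% higher and 24.1% lower. Counted in both directions, the members were therefore not called more often than genes in general. Their median log2 fold change was 0.44 in 10xPerf, 0.97 in 10xBulge and 0.58 between the lines, where the medians of all genes were 0.018, -0.026 and -0.067. The medians against WT rested on single WT libraries: without N1 they were -0.21 in 10xPerf and 0.46 in 10xBulge, and without N2 they were 1.01 and 1.48. Between the lines the median was 0.22 without N6. Against WT, both libraries of 10xPerf were above both of WT for 2 of 9 members (20.2% of all genes) and below them for 1 (19.8% of all genes). The same held in 10xBulge for 5 of 9 members above WT (28.9% of all genes) and 0 below it (33.2%). Both 10xBulge libraries were above both of 10xPerf for 4 members (30.7% of all genes) and below them for 1 (35.3%).

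The members shared a direction of the difference between mice in WT, and less so in the knock-in lines. N1 was below N2 for 8 of the 9 members, with log2 differences of -1.89 to -0.55, and Ythdf1 was the exception (0.21 higher in N1). N5 was below N6 for Ythdc2, Meioc, Rbm46, Xrn1, Ythdc1 and Ythdf3, with log2 differences of -1.34 to -0.33, and above it for Stra8, Ythdf1 and Ythdf2. N3 was above N4 for 6 members and below it for 3, by at most 0.58 for all members but Stra8. A shift shared by 2 genes cancels in their ratio within a library, so Ythdc2 was also set against each other member in the same library, a comparison chosen after the values were seen and given as a description.

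Relative to its cofactors, Ythdc2 was lower in both knock-in lines. The ratio of the normalized counts of Ythdc2 to those of Rbm46 was 0.920 and 0.993 in WT, 0.458 and 0.438 in 10xPerf, and 0.377 and 0.466 in 10xBulge. The WT libraries agreed closely in this ratio although they differed by 1.54 on the log2 scale in Ythdc2 and 1.43 in Rbm46, and the 4 knock-in libraries lay well below them. On the log2 scale the ratio differed from WT by -1.09 in 10xPerf and by -1.19 in 10xBulge. The ratio of Ythdc2 to Meioc was 0.193 and 0.269 in WT, 0.0881 and 0.112 in 10xPerf, and 0.0944 and 0.0882 in 10xBulge, which is -1.20 and -1.32 against WT on the log2 scale. Relative to Ythdf3 the log2 ratio was -0.063 and 0.45 in WT, -0.45 and -0.54 in 10xPerf, and -0.84 and -0.14 in 10xBulge, again without overlap with WT but with a narrow gap. Both lines were set against the same WT libraries here too.

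The ratio did not fall against every member, and it did not always vary less than Ythdc2 alone: relative to Ythdf1 the log2 ratio was -1.61 and 0.14 in WT, and relative to Ythdf2 it was -1.94 and -0.17 in 10xBulge. Ythdc2 was below WT without overlap relative to 5 of the 8 other members in 10xPerf, among which the gap for Ythdf2 was the narrowest, and to 3 of 8 in 10xBulge, and in 10xBulge it was above WT relative to Ythdc1 (log2 ratio -0.86 and -0.92 in WT, -0.47 and -0.10 in 10xBulge). Against all 12444 protein-coding genes with a mean normalized count of at least 200, Ythdc2 was below WT without overlap relative to 24.4% of genes in 10xPerf and 9.72% in 10xBulge, and above WT relative to 0.747% and 17.6%. In 10xBulge it was below 10xPerf relative to 7.09% of these genes and above it relative to 32.8%. Relative to the median of the spermatocyte markers its log2 level was -1.20 and -0.17 in WT, -0.76 and -1.12 in 10xPerf, and -0.29 and 0.29 in 10xBulge, so the groups overlapped with WT in 10xPerf and in 10xBulge. Of the genes in these ratios, Meioc and Rbm46 carried the calls in 10xBulge, where the value of Ythdc2 itself against WT was 0.28 and not called. In 10xPerf the values against WT were -0.20 for Ythdc2, 0.90 for Rbm46 and 1.00 for Meioc, none of them called. With all libraries, the lower ratios there thus came mostly from the higher values of Rbm46 and Meioc. Without N1 the values were -0.97 for Ythdc2, 0.18 for Rbm46 and 0.46 for Meioc. The part of each gene in the lower ratios therefore depended on 1 WT library. With the GC trend of each library removed, the log2 ratio of Ythdc2 to Rbm46 was -0.037 and 0.0064 in WT, -0.88 and -1.33 in 10xPerf, and -1.77 and -0.96 in 10xBulge. To Meioc it was -2.29 and -1.88 in WT, -3.26 and -3.29 in 10xPerf, and -3.76 and -3.36 in 10xBulge. To Ythdf3 it was 0.020 and 0.47 in WT, -0.20 and -0.68 in 10xPerf, and -1.20 and -5.1e-05 in 10xBulge. The gap for Ythdf3 between 10xBulge and WT was thus nearly lost.

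**Figure D4:**
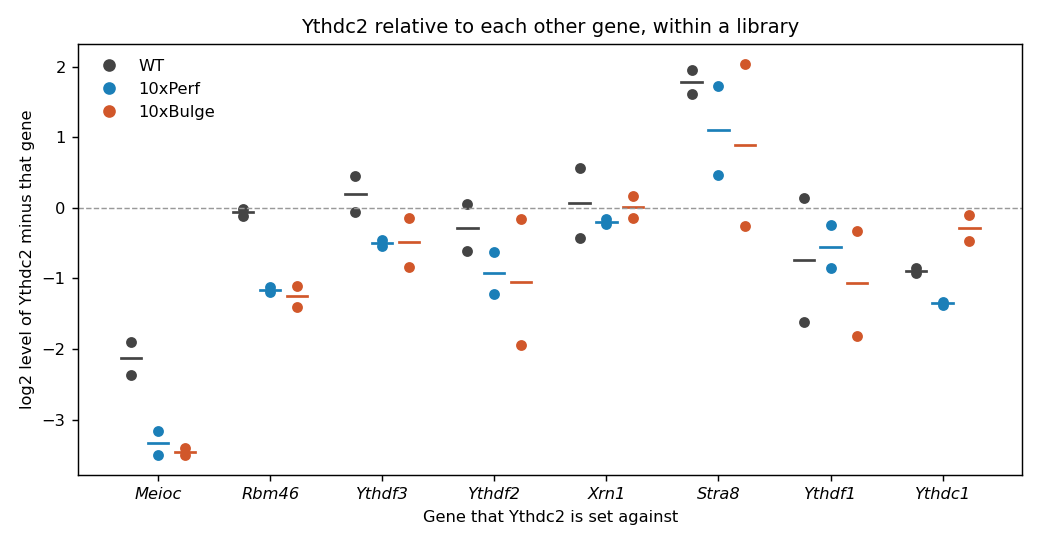
Log2 ratio of Ythdc2 to each of the 8 other members within a library (vertical axis), 1 point per library, coloured by genotype, with a line at each genotype's mean and a dashed line at equal levels. Relative to Rbm46 the WT libraries are at -0.12 and -0.011 and the 4 knock-in libraries between -1.41 and -1.10.

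The cofactors stayed in a similar ratio to each other. Meioc was 3.70 to 5.28 times Rbm46 in normalized counts over the 6 libraries, a range narrower than that of either gene, and the ranges of the 3 genotypes overlapped. Stra8 held no such ratio, at 0.113 to 0.451 of Rbm46. Among the cytoplasmic readers, Ythdf2 was 1.02 to 2.14 times Ythdf3 and 0.501 to 1.30 times Ythdf1. The lowest ratio of Ythdf2 to Ythdf1 was in N1.

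The genes whose pattern was most like that of each member were ranked by Pearson's r of log2 values over the 6 libraries, among protein-coding genes with a mean normalized count of at least 200. These 6 points share libraries and therefore GC trend and composition, and with so many genes very high values arise for every member, so r is given as a description. For Ythdc2 the closest were Prrg1 (r = 0.967), Msh4, which encodes a meiotic MutS homologue (0.956), Xpo4, an exportin gene (0.955), Mgat4d (0.950) and Ptk2, a focal adhesion kinase gene (0.949). For Meioc they were Psmc6, a proteasome ATPase gene (0.995), Galc (0.994) and Acss3 (0.994), and for Rbm46 Ubxn2b (0.997), Stxbp3 (0.996) and Rfx7 (0.996). For Ythdc1 the closest gene was Zc3h13, which encodes a subunit of the m6A writer complex (0.995), followed by Wwp1 (0.980) and Spdya (0.976). Stra8 was closest to Dctn4 (0.993), Zfp1 (0.988) and Uba2 (0.986), and Xrn1 to Hectd2 (0.992), Zfp940 (0.989) and Lysmd3 (0.987). The closest genes were Ogdhl, Rab43 and Pex19 for Ythdf1 (0.997 to 0.998), Rps3a1, Dnajc24 and Lima1 for Ythdf2 (0.998 and above) and Fam172a, Rfx7 and Rbl1 for Ythdf3 (0.998 and above). Within the members, r was 0.968 between Meioc and Rbm46, 0.991 between Rbm46 and Ythdf3, and 0.653 to 0.831 between Ythdc2 and each of Meioc, Rbm46, Xrn1, Ythdc1 and Ythdf3. Between Ythdc2 and Stra8, Ythdf2 and Ythdf1 it was 0.354, 0.309 and 0.032.

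Because STRA8 acts with MEIOSIN on promoters that hold the motif CNCCTCAG, the promoters of the members were searched for it on both strands, in windows from 250 bases before to 50 bases after the start (RefSeq, GRCm38.p6). Promoters of 7 members were matched, all but Ythdc2 and Ythdf3. The motif was in 2 of the 7, and in 7.94% of all 32851 promoters of that length. The stretches around it are shown because they belong to a cofactor and to the reader that carried calls, 5′ to 3′ on the strand of the gene, with the motif or its reverse complement in capitals.
Rbm46, chr3:82876481-82876510, reverse strand: ggcacgctaggCTGAGGCGaagagcccgtg
Ythdf1, chr2:180920887-180920916, reverse strand: cattggagtcggcgcCCCCTCAGcctgtcc
In Rbm46 the motif lay on the strand opposite to the gene. Read on the strand of the gene, its reverse complement began at position -16 from the start. In Ythdf1 the motif lay on the strand of the gene and began at position 36 after the start. A match is a description of the letters and does not show that a factor binds there. Meioc, which rose with Rbm46 in 10xBulge, had no match in its window.

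Around the members, 71 other genes in 7 lists of the same pathway were examined. In 10xPerf against WT none of the 71 was called. In 10xBulge against WT 11 were called higher and 5 lower, which is 22.5% against 34.4% of all genes, and in 10xBulge against 10xPerf 6 higher and 5 lower, 15.5% against 37%. Counted in both directions, calls were no more frequent than in the background, as with the members. By direction, 11.4% of all genes were called higher and 23% lower in 10xBulge against WT. Against 10xPerf the shares of all genes were 12.9% higher and 24.1% lower. Most calls of the 71 were thus higher in 10xBulge against WT. Against 10xPerf they were nearly even, with 6 of 71 higher and 5 lower. Most calls of all genes were lower in both contrasts.

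Of 19 genes of 5′-3′ decay, the pathway in which XRN1 acts, 5 rose and 1 fell in 10xBulge against WT, with a median log2 fold change of 0.68. Of all genes, 11.4% were called higher and 23% lower in that contrast, and 12.9% and 24.1% against 10xPerf. These shares are the background for the lists below as well. Lsm6, which encodes a subunit of the LSM ring that binds deadenylated mRNA ends, was at 317 and 372 in WT, 487 and 599 in 10xPerf, and 1022 and 1161 in 10xBulge. The groups did not overlap, and the log2 fold change in 10xBulge was 1.66 (SE 0.38, adjusted p 0.0119). Lsm14a and Lsm14b, which encode components of mRNP granules, rose by 1.24 (adjusted p 0.0685) and 1.13 (adjusted p 0.0928) on the log2 scale. Against 10xPerf, 4 of the 19 rose in 10xBulge and 0 fell, among them Lsm14b (1.26, adjusted p 0.0622), Lsm1 (1.15, 0.0657) and Lsm6 (1.01, 0.0803). Dcp1b, which encodes a cofactor of decapping, fell from 5437 and 4573 in WT to 3157 and 1271 in 10xBulge (log2 fold change -1.32, SE 0.48, adjusted p 0.0754). Of 11 m6A writer genes 2 rose and 0 fell in 10xBulge, Mettl5 (74.2 and 127 in WT, 243 and 406 in 10xBulge, log2 fold change 1.68, adjusted p 0.0288) and Zcchc4 (1.04, adjusted p 0.0923), both of which encode methylases of ribosomal RNA. Against 10xPerf none of the 11 was called. The eraser gene Fto was lower in 10xBulge than in 10xPerf by 1.45 on the log2 scale (a change of -1.45, adjusted p 0.0404). Against WT, Fto was not called in 10xBulge (-1.03, adjusted p 0.124) or in 10xPerf (0.41, adjusted p 0.864). The other eraser gene tested had no call.

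Of 8 genes of meiotic entry, Stra8 included, 1 rose and 1 fell in 10xBulge against WT. Sohlh2, a transcription factor gene of differentiating spermatogonia, was at 380 and 589 in WT, 360 and 664 in 10xPerf, and 1280 and 1251 in 10xBulge (log2 fold change 1.42, SE 0.45, adjusted p 0.0466). Rec8, which encodes the meiotic cohesin subunit, was at 4185 and 2507 in WT, 3116 and 3121 in 10xPerf, and 886 and 285 in 10xBulge (-2.69, SE 0.55, adjusted p 0.00659). The 10xBulge libraries were outside the other 4 for both genes, and both were called against 10xPerf too, Sohlh2 at 1.37 (adjusted p 0.0490) and Rec8 at -2.63 (adjusted p 0.00696).

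Genes of the mitotic programme, which YTHDC2 and MEIOC are known to lower, were examined with 15 tested. In 10xPerf none was called and the median was 0.13. In 10xBulge 2 of the 15 rose and 1 fell, with a median of 0.21, where 11.4% of all genes were called higher and 23% lower. The calls were thus not more frequent than among genes in general, counted in both directions. Ccna2, the cyclin gene known as a target of the complex, was at 244 and 369 in WT, 503 and 637 in 10xPerf, and 882 and 805 in 10xBulge. All 4 knock-in libraries were above both WT libraries, with log2 fold changes of 0.91 (adjusted p 0.830) in 10xPerf and 1.49 (SE 0.41, adjusted p 0.0261) in 10xBulge. Both libraries of a line lay above both of WT for 20.2% of all genes in 10xPerf and 28.9% in 10xBulge. Cdk1, the kinase gene of mitotic and meiotic division, rose by 1.03 on the log2 scale in 10xBulge (adjusted p 0.0938), while Ccnd3, a cyclin gene of the transition from G1 to S phase, fell (-1.92, adjusted p 0.00592) and was lower than in 10xPerf as well (-1.50, adjusted p 0.0196). Spermatid, spermatogonial, Sertoli, Leydig and macrophage markers moved in the same libraries, as given above, and their part in these values was not tested.

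Other m6A-binding proteins outside the YTH family gave 11 tested genes, of which 1 rose and 2 fell in 10xBulge against WT. Fxr1, an RNA-binding protein gene needed for late spermatogenesis, was at 10081 and 16202 in WT, 27225 and 22262 in 10xPerf, and 3363 and 5308 in 10xBulge (-1.60 against WT, adjusted p 0.0274). Igf2bp3 was at 2999 and 4856 in WT, 6803 and 6359 in 10xPerf, and 1133 and 1122 in 10xBulge (-1.76 against WT, adjusted p 0.0108). For both genes the 10xBulge libraries were lowest and the 10xPerf libraries highest, and 10xBulge against 10xPerf gave -2.54 for each (adjusted p 0.00231 for Fxr1 and 0.00121 for Igf2bp3). Rbmx, which has closely similar copies among which reads may be split, rose by 1.39 on the log2 scale against WT (adjusted p 0.0420) and by 1.26 against 10xPerf (adjusted p 0.0552). None of the 6 genes of helicases related to YTHDC2 was called in any contrast.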

How the data were processed

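The authors quantified rRNA-depleted total RNA of testis with salmon against mouse transcripts of GRCm39 (Ensembl) and deposited DESeq2 normalized counts, a signal that is not whole reads, with their own log2 fold changes and adjusted p-values, which were not used. Only 6132 of the 34847 genes above 0 (17.6%) were whole multiples of the value of 1 read in all libraries (tolerance 0.001), so no count model was run. Values were tested with limma 3.58.1 in R 4.3.3 as log2(value + 1), with a term per genotype over all 6 libraries, eBayes with trend, Benjamini-Hochberg adjustment over the 23782 genes that reached 10 in at least 2 libraries, and a threshold of 0.1. All p-values are two-sided. A fold change on this scale understates low genes. An exact permutation test of 2 against 2 cannot go below 0.33. The fit was tested on simulated data. The members are named and, of each other list, up to 3 genes a contrast and direction with the smallest adjusted p among those called whose libraries do not overlap. Members and lists were chosen with earlier results of these data known. Positions, lengths and GC content are of GENCODE M21 (GRCm38). Immunoprecipitation libraries were not analysed here.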

Additional observations from a re-analysis of the deposited data

Results flagged for a closer look

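Between the 2 knock-in lines Ythdf1 differed by the test of the difference itself, a call that rested on single libraries, as given above. 10xBulge minus 10xPerf was 1.00 on the log2 scale (limma over all genes, adjusted p 0.0874), with 10xPerf at -0.38 and 10xBulge at 0.62 against the same WT libraries. All genes are compared in this way, and 37% of them were called in this contrast, so the difference is not particular to Ythdf1. All 16 spermatid markers were called lower in this contrast, and the part of cell composition in the value of Ythdf1 was not tested.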

How the results depend on the processing

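With 2 mice a group, 1 library often decided a call or a sign. Of the 9 members, 0 were called in 10xPerf against WT under every setting run. In 10xBulge against WT 2 were called, against 5 with library totals, 4 with the spermatocyte marker median made equal, 4 with the GC trend removed and 0 with only the 2 genotypes compared, and 0 to 5 with 1 library left out. In 10xBulge against 10xPerf 1 was called, against 0 with a filter of 1 in 1 library, 0 with a minimum of 10 in every library and 4 with the GC trend removed, and 0 to 1 with 1 library left out. The sign turned for Ythdc1 in 10xBulge against WT with library totals (0.062) and spermatocyte scaling (0.073), and for Xrn1 in 10xPerf with the GC trend removed (-0.21). With 1 library left out, values that turned sign ranged in 10xPerf against WT from -0.97 to 0.57 for Ythdc2, -0.45 to 1.43 for Stra8, -0.21 to 0.34 for Xrn1, -0.54 to 1.07 for Ythdc1 and -0.020 to 1.01 for Ythdf3, in 10xBulge against WT from -0.49 to 1.06 for Ythdc2, -1.13 to 0.48 for Ythdc1 and -0.33 to 1.01 for Xrn1, and in 10xBulge against 10xPerf from -0.034 to 1.00 for Ythdc2 and -0.39 to 0.95 for Xrn1. For the ratio of Ythdc2 to Meioc, Rbm46 or Ythdf3, the settings were chosen after seeing the data. Another pseudocount hardly moves a ratio of values this high, so it could not turn the sign. Leaving out 1 library could not either, because no knock-in library overlapped WT in these ratios. Removal of the GC trend could have turned the sign and did not. Over all genes, calls in 10xBulge against WT were 2712 higher and 5466 lower, and 5789 and 4745 with library totals. The causes were not tested. No paired analysis was possible because the library labels, N1 to N6, give no pairing between genotypes.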
